A study of Mus musculus with 8 samples.

Results

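The interleukin-2 (IL-2) receptor pathway was examined through 10 genes: the receptor chains *Il2ra*, *Il2rb* and *Il2rg*, the kinases *Jak1* and *Jak3*, the transcription factors *Stat5a* and *Stat5b*, and the feedback inhibitors *Cish*, *Socs1* and *Socs3*. They were taken by gene symbol from the count table, where all 10 were found among 11911 genes, and all 10 passed the filter on low counts that kept 11317 genes for testing. The RNA came from CD4+ T cells of mouse spleen that had been polarized for 36 hours toward induced regulatory T cells (iTregs) with TGF-β and antibodies to CD3, CD28, IFNγ and IL-4. The protocol names no added IL-2. A group of 4 libraries came from *Foxp3YFP-Cre* control mice and another 4 from *Tdrd3fl/fl/Foxp3YFP-Cre* mice, so that both groups carry the YFP-Cre fusion in the *Foxp3* locus and differ in the floxed alleles of *Tdrd3*, which encodes a Tudor domain protein that reads methylated arginines. Cre made from the *Foxp3* locus can delete *Tdrd3* only in cells that have transcribed *Foxp3*, and no sort for YFP+ cells is described ahead of the RNA extraction, so the libraries may contain cells that kept the gene. The sources used here give no age for these mice.

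The high-affinity IL-2 receptor is built from an α, a β and a γ chain. The α chain (CD25, *Il2ra*) raises the affinity, and the β (*Il2rb*) and common γ (*Il2rg*) chains carry the signal through JAK1 and JAK3 to STAT5A and STAT5B, which enter the nucleus and switch on target genes. Among these targets are *Il2ra* itself and the inhibitors *Cish* and *Socs1*, which close a negative feedback loop. Regulatory T cells make little IL-2 of their own, carry high CD25 and depend on STAT5 for expression of *Foxp3*, the factor that defines them.

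Transcription start regions of these genes are shown because activated STAT5 dimers bind a palindrome with the letters TTCNNNGAA, which reads the same on both strands. The RefSeq promoter table (GRCm38.p6), which gives 300 bases a window, 250 before and 50 after an annotated start, held 11 windows for 9 of the 10 genes (all but *Il2rb*), and 2 of these windows, those of *Cish* and *Socs3*, contained the letters. Of all 32851 windows, 8.30% held at least 1 match and 0.457% held 2 or more. The sequences below were located on GRCm39, are written 5′ to 3′ on the strand of the gene, and have the matched letters in capitals. The first holds the 250 bases before the RefSeq start of *Il2ra* (chr2:11647353-11647602, plus strand), which lie upstream of its GENCODE exons and contain no match. The *Cish* and *Socs3* stretches hold 30 bases each around their matches (chr9:107173853-107173882, plus strand, and chr11:117860327-117860356, minus strand) and lie in annotated exons, that of *Cish* in its 5′ untranslated region.
Il2ra: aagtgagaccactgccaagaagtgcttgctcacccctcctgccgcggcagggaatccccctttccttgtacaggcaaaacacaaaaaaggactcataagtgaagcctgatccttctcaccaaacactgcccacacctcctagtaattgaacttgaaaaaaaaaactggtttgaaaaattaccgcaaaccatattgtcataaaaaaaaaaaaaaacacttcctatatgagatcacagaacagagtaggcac
Cish: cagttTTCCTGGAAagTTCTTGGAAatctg
Socs3: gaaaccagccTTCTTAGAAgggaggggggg
*Cish* carried 2 matches, at positions 1 to 9 and 12 to 20 counted from its RefSeq start, and *Socs3* carried 1, at positions -154 to -146. A match describes the letters of a window and was not tied to binding in these cells.

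Values below are normalized CPM, that is, the authors' estimated counts after scaling by library size and TMM factor, and log2 fold changes are *Tdrd3fl/fl/Foxp3YFP-Cre* over *Foxp3YFP-Cre* from the quasi-likelihood test of edgeR, adjusted over the 11317 tested genes by the Benjamini-Hochberg method. Totals over the listed genes were 13258239 to 16001676 counts a library, and the 10 genes had 321 to 34598 counts in a library. The targeted gene, *Tdrd3*, had 18.8, 15.1, 9.95 and 17.7 CPM in the libraries labelled *Foxp3YFP-Cre* replicates 1 to 4 and 13.7, 10.7, 12.9 and 11.1 in *Tdrd3fl/fl/Foxp3YFP-Cre* replicates 1 to 4. The library labelled *Foxp3YFP-Cre* replicate 3 thus lay below every *Tdrd3fl/fl/Foxp3YFP-Cre* library, and *Tdrd3* did not pass the test (log2 fold change −0.35, edgeR adjusted p = 0.496). *Tdrd3fl/fl/Foxp3YFP-Cre* replicates 1 and 4 were high together for several genes outside the pathway, described further on, and results are therefore also given without them. Because they were picked for their values in those genes, smaller fold changes of those genes without them follow from the choice and are no test. The methods state 3 biological replicates from independent mice, whereas the labels give 4 libraries a group. It is therefore not known for every library that it came from a separate mouse. The p-values judge the genotype difference against the variation between these libraries, which may be less than that between mice.

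Transcripts of the IL-2 pathway were at nearly the same level in both genotypes. None of the 10 genes had an adjusted p below 0.05 in edgeR's test, where 0.265% of all tested genes did (30 genes). DESeq2 called 1 of the 10, *Il2ra*, and called 79 genes in all, so the edgeR share is not its background. At an unadjusted p below 0.05, 1 gene, *Il2ra*, was lower (background 4.91% of tested genes) and 1 gene, *Stat5a*, was higher (background 4.38%). The genotypes did not overlap in 1 gene in the lower direction, again *Il2ra* (background 2.63%), and in 0 genes in the higher direction (background 2.25%). The 10 log2 fold changes ran from −0.13 to 0.11 with a median of 0.00, 5 of them positive and 5 negative, and the median over all tested genes was also 0.00. Their median size was 0.058, beside 0.063 for all tested genes and 0.047 for the 7460 tested genes with a mean of at least 20 CPM. Except for *Socs3*, no 95% interval reached beyond a 1.16-fold difference in either direction.

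**Figure D1:**
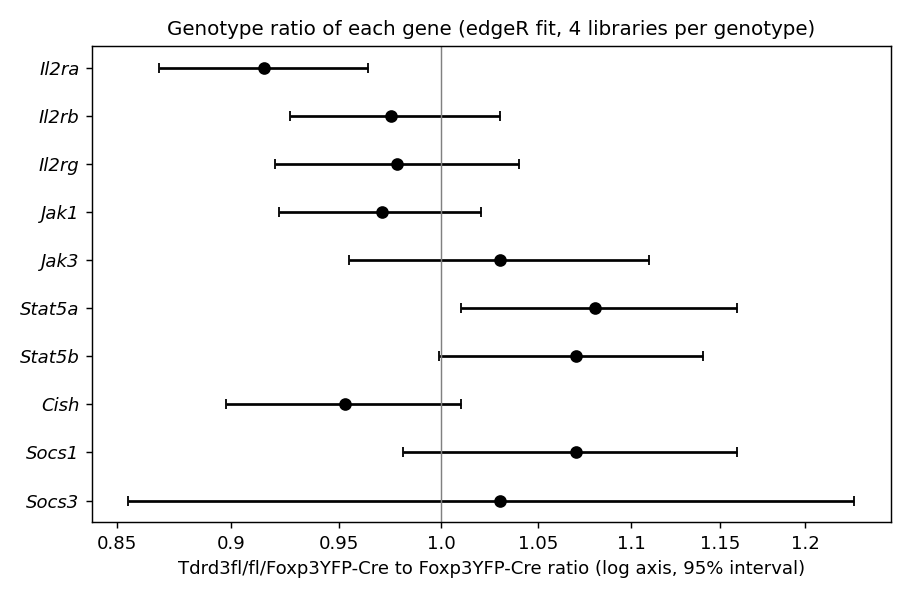
Ratio of each of the 10 genes in *Tdrd3fl/fl/Foxp3YFP-Cre* over *Foxp3YFP-Cre* libraries (log axis; points are edgeR estimates, bars 95% intervals, 4 libraries per genotype). The intervals of *Il2ra*, from 0.868 to 0.964, and *Stat5a*, from 1.01 to 1.16, lie on one side of 1, and neither gene passed the test after adjustment.

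Among the receptor chains, *Il2ra* (ENSMUSG00000026770, chr2:11647618-11698004 of GRCm39, plus strand) encodes CD25, the α chain that gives the receptor its high affinity. It had 2250, 2180, 2370 and 2270 CPM in *Foxp3YFP-Cre* replicates 1 to 4 and 2030, 2170, 2080 and 2030 CPM in *Tdrd3fl/fl/Foxp3YFP-Cre* replicates 1 to 4. All 4 *Tdrd3fl/fl/Foxp3YFP-Cre* libraries lay below all 4 controls, with replicate 2 of each genotype almost touching, and the highest value was in the library labelled *Foxp3YFP-Cre* replicate 3. The mean was 2270 ± 78.3 in controls and 2080 ± 67.5 in *Tdrd3fl/fl/Foxp3YFP-Cre* iTregs (SD, n = 4 each), a ratio of 0.915 with a 95% interval of 0.868 to 0.964. The log2 fold change of −0.13 (SE 0.036) gave p = 0.00209 before and 0.152 after adjustment in edgeR, and the two-sided exact permutation test gave p = 0.0286, the smallest that 4 libraries against 4 allow. In the 16 alternative settings the adjusted p ran from 0.0484 to 1.00 and was below 0.05 only in DESeq2, at 0.0484. Without the library labelled *Foxp3YFP-Cre* replicate 3 the log2 fold change was −0.11 with an edgeR adjusted p of 0.262. Without *Tdrd3fl/fl/Foxp3YFP-Cre* replicates 1 and 4 it was −0.09 with an unadjusted edgeR p of 0.0682. The libraries left out in both fits held the highest control value and the lowest *Tdrd3fl/fl/Foxp3YFP-Cre* values of *Il2ra*. Smaller fold changes without them follow from this and are no test. In bulk RNA, fewer cells that express a gene and less of its RNA per cell cannot be told apart.

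Other values moved with *Il2ra*. The summed level of 10 T cell identity genes was 3580 to 3810 CPM in controls and 3380 to 3560 in *Tdrd3fl/fl/Foxp3YFP-Cre* libraries, which did not overlap. The sum includes *Thy1*, a surface glycoprotein of T cells, which fell by 0.26 on the log2 scale (1030, 1020, 1020 and 882 CPM against 786, 876, 880 and 760, edgeR adjusted p = 0.0439). *Thy1* was the only one of the 10 to pass the test and the only one whose genotypes did not overlap. Over the 10 genes the median log2 fold change was −0.04, with 8 negative and 2 positive. The summed level of the CD8 chains *Cd8a* and *Cd8b1* was 7.72 to 21.8 CPM in controls, highest in the library labelled *Foxp3YFP-Cre* replicate 3, and 6.68 to 8.35 CPM in *Tdrd3fl/fl/Foxp3YFP-Cre* libraries. Of 6 genes of endoplasmic reticulum stress and cell death, *Trib3* rose by 0.29 on the log2 scale, from 41.2 to 46.8 CPM in controls to 52.3 to 54.9 CPM (edgeR adjusted p = 0.0439), and the summed level of the 6 was 601 to 647 CPM in controls and 645 to 679 CPM in *Tdrd3fl/fl/Foxp3YFP-Cre* libraries. The calls of *Thy1* and *Trib3* were lost in several fits without 1 library: that of *Thy1* without *Foxp3YFP-Cre* replicate 1, 2 or the library labelled 3 or *Tdrd3fl/fl/Foxp3YFP-Cre* replicate 1, 3 or 4 (edgeR adjusted p = 0.0585 to 0.267), and that of *Trib3* without any library but *Tdrd3fl/fl/Foxp3YFP-Cre* replicate 2 (edgeR adjusted p = 0.0516 to 0.199). The part of these differences in the *Il2ra* values was not tested.

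The genes whose log2 CPM followed *Il2ra* most closely over the 8 libraries, among 8776 genes with a mean of at least 10 CPM, were *Serpine2* (Pearson r = 0.991, Spearman rho = 1.00), *Mbnl3* (r = 0.976, rho = 0.976) and *Atp1b3* (r = 0.976, rho = 0.952). These are descriptions of 8 points that share library preparation and the genotype split, picked as the highest of many. *Serpine2*, a secreted inhibitor of serine proteases, had 35.7 ± 4.57 CPM in controls and 24.9 ± 3.26 in *Tdrd3fl/fl/Foxp3YFP-Cre* libraries (SD, n = 4; log2 fold change −0.51, SE 0.0986, edgeR adjusted p = 0.0348). *Mbnl3*, an RNA-binding splicing factor, had 108 ± 8.29 and 79.7 ± 10.1 CPM (SD, n = 4; log2 fold change −0.43, SE 0.0739, edgeR adjusted p = 0.0147). Neither call held in every fit without 1 library: the edgeR adjusted p of *Mbnl3* was 0.056 to 0.104 without replicate 1 of either genotype, the library labelled *Foxp3YFP-Cre* replicate 3 or *Tdrd3fl/fl/Foxp3YFP-Cre* replicate 4, and that of *Serpine2* was 0.0708 to 0.180 without any of these or *Tdrd3fl/fl/Foxp3YFP-Cre* replicate 3. Nearest to *Cish* were *Trp53rka* (r = 0.959, rho = 0.881), *Unc13d* (r = 0.947, rho = 0.881) and *Scrib* (r = 0.946, rho = 0.929), none with an adjusted p under 0.05.

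*Il2rb* (ENSMUSG00000068227, chr15:78363456-78379471, minus strand), the β chain shared with the IL-15 receptor, had 832, 860, 843 and 812 CPM in controls and 804, 802, 841 and 818 CPM in *Tdrd3fl/fl/Foxp3YFP-Cre* replicates 1 to 4. The groups overlapped, although replicates 1 and 2 of *Tdrd3fl/fl/Foxp3YFP-Cre* lay below every control. Its ratio was 0.975 with a 95% interval of 0.927 to 1.03 (edgeR adjusted p = 0.845). *Il2rg* (ENSMUSG00000031304, X chromosome, 100307984 to 100311861, minus strand), the common γ chain used by the receptors for IL-2, IL-4, IL-7, IL-9, IL-15 and IL-21, had 263, 265, 281 and 274 CPM in controls and 268, 277, 247 and 269 CPM in *Tdrd3fl/fl/Foxp3YFP-Cre* libraries. Only replicate 3 of *Tdrd3fl/fl/Foxp3YFP-Cre* lay outside the range of the controls. The ratio of *Il2rg* was 0.978 with a 95% interval of 0.920 to 1.04 (edgeR adjusted p = 0.896), and without that replicate the log2 fold change was 0.00.

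**Figure D2:**
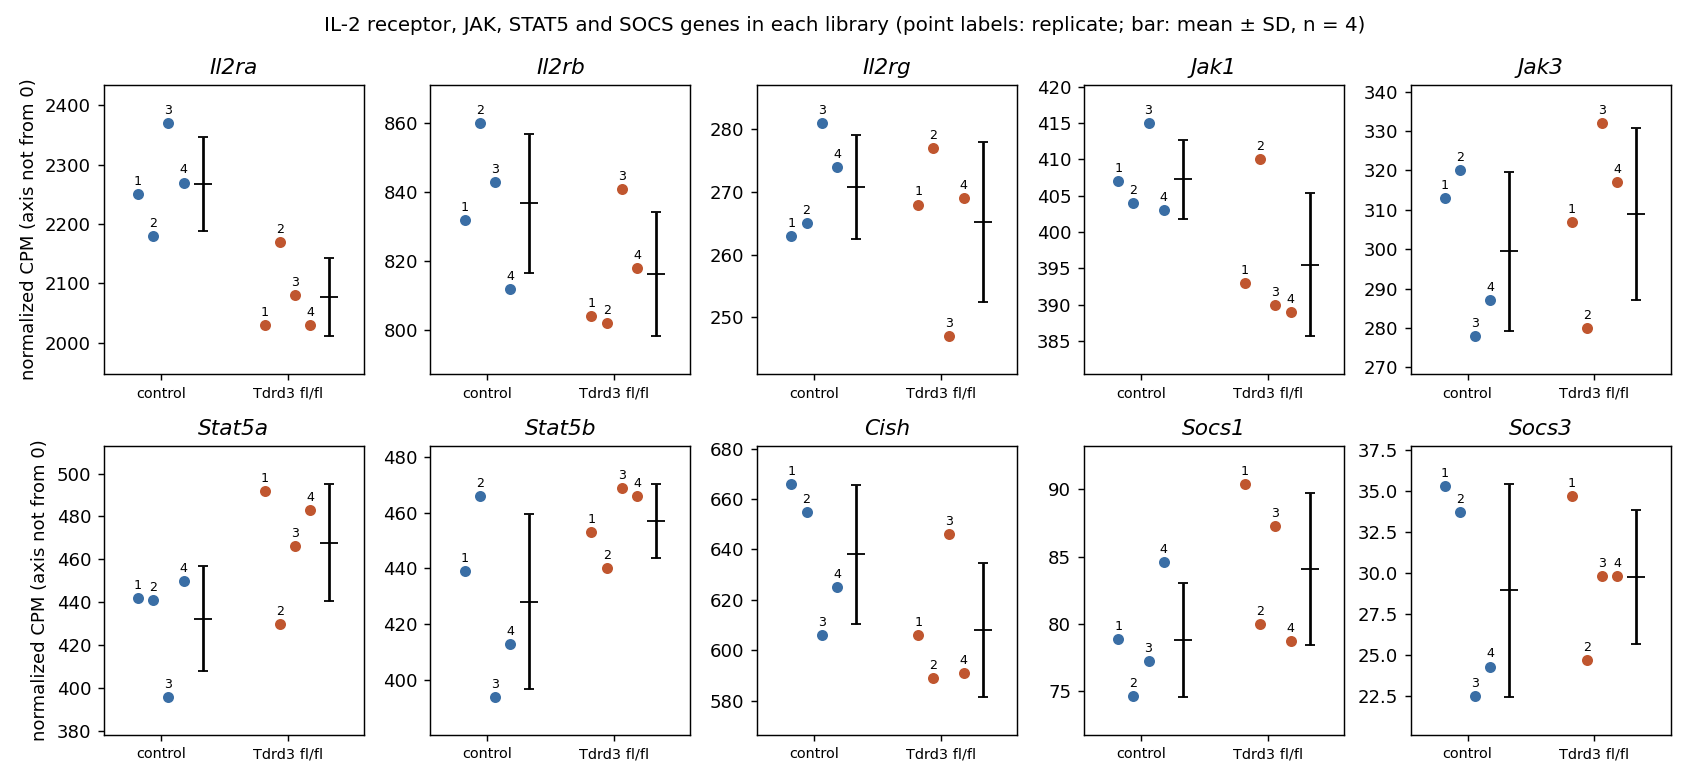
Normalized CPM of the 10 genes in each of the 8 libraries (points, numbered by replicate; blue, *Foxp3YFP-Cre* control; orange, *Tdrd3fl/fl/Foxp3YFP-Cre*; bars, mean ± SD, n = 4; axes do not start at 0). *Il2ra* alone shows 4 points of 1 genotype below all 4 of the other, at 2030 to 2170 against 2180 to 2370 CPM, and in the other 9 genes the genotypes overlap.

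Of the receptor kinases, *Jak1* (ENSMUSG00000028530, chr4:101009564-101122479, minus strand), which docks on the β chain, had 407, 404, 415 and 403 CPM in controls and 393, 410, 390 and 389 CPM in *Tdrd3fl/fl/Foxp3YFP-Cre* libraries. Except for replicate 2, the *Tdrd3fl/fl/Foxp3YFP-Cre* libraries lay below the controls, which spread by only 5.34 CPM (SD, n = 4). The ratio of *Jak1* was 0.971 with a 95% interval of 0.922 to 1.02 (edgeR adjusted p = 0.824; two-sided exact permutation test, p = 0.114). *Jak3* (ENSMUSG00000031805, chr8:72128940-72143219, plus strand), which docks on the γ chain and is largely restricted to blood cells, had 313, 320, 278 and 287 CPM in controls and 307, 280, 332 and 317 CPM in *Tdrd3fl/fl/Foxp3YFP-Cre* libraries. These values overlapped widely, with a ratio of 1.03 and a 95% interval of 0.955 to 1.11 (edgeR adjusted p = 0.878). Exons of *Jak3* overlap *Insl3* on the same strand, where reads could be shared even if strand was kept. On the opposite strand, exons of *Jak3* overlap *B3gnt3* and those of *Jak1* overlap *Raver2*. Reads could be shared there if strand was ignored.

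*Stat5a* and *Stat5b* are neighbours on chromosome 11, transcribed away from each other with 8626 bases between them (ENSMUSG00000004043, chr11:100750177-100775995, plus strand, and ENSMUSG00000020919, chr11:100671557-100741550, minus strand), and encode closely related proteins. *Stat5a* had 442, 441, 396 and 450 CPM in controls and 492, 430, 466 and 483 CPM in *Tdrd3fl/fl/Foxp3YFP-Cre* libraries. Replicate 2 was the only *Tdrd3fl/fl/Foxp3YFP-Cre* library within the range of the controls, and the lowest of all was the library labelled *Foxp3YFP-Cre* replicate 3. Its ratio was 1.08 with a 95% interval of 1.01 to 1.16, with p = 0.0293 before and 0.471 after adjustment in edgeR (two-sided exact permutation test, p = 0.114). The log2 fold change of *Stat5a*, 0.11 (SE 0.0477) over all libraries, was 0.07 without the library labelled *Foxp3YFP-Cre* replicate 3 and 0.05 without *Tdrd3fl/fl/Foxp3YFP-Cre* replicates 1 and 4, with unadjusted p-values of 0.115 and 0.404. *Stat5b* had 439, 466, 394 and 413 CPM in controls and 453, 440, 469 and 466 CPM in *Tdrd3fl/fl/Foxp3YFP-Cre* libraries. The groups overlapped through control replicate 2, and the lowest value was again in the library labelled *Foxp3YFP-Cre* replicate 3. The ratio of *Stat5b* was 1.07 with a 95% interval of 0.999 to 1.14 (unadjusted p = 0.0535, edgeR adjusted p = 0.549). In each library the counts of *Stat5a* were 0.948 to 1.09 times those of *Stat5b*. The transcripts of both genes share 269 stretches of 100 identical bases, 2.88% of those in *Stat5a* and 2.80% of those in *Stat5b*. How the authors' counting divided shared reads therefore limits a comparison of both. No library has a whole-number count for either, but this also holds for *Cish*, which shares no such stretch with the other 9 genes. Exons of *Stat5a* overlap *Stat3* and *Gm72578* on the opposite strand, so that reads could be shared if strand was ignored. The same limit holds for *Il2rb*, *Cish*, *Socs1* and *Socs3*, whose exons overlap predicted genes with *Gm* names on the opposite strand. No overlap was annotated for *Il2ra*, *Il2rg* and *Stat5b*.

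Of the feedback inhibitors, *Cish* (ENSMUSG00000032578, chr9:107173225-107179983, plus strand), whose start region carries the 2 palindromes printed above and whose protein CIS blocks STAT5 docking, had 666, 655, 606 and 625 CPM in controls and 606, 589, 646 and 591 CPM in *Tdrd3fl/fl/Foxp3YFP-Cre* libraries. In controls the lowest value was in the library labelled replicate 3, and *Tdrd3fl/fl/Foxp3YFP-Cre* replicate 3 lay inside the range of the controls. The ratio of *Cish* was 0.953 with a 95% interval of 0.898 to 1.01 (unadjusted p = 0.108, edgeR adjusted p = 0.680). *Socs1* (ENSMUSG00000038037, chr16:10600104-10603400, minus strand), which inhibits the JAK kinases directly, had 78.9, 74.6, 77.2 and 84.6 CPM in controls and 90.4, 80.0, 87.3 and 78.7 CPM in *Tdrd3fl/fl/Foxp3YFP-Cre* libraries. *Tdrd3fl/fl/Foxp3YFP-Cre* replicates 1 and 3 were above every control and replicates 2 and 4 were not. Its ratio was 1.07 with a 95% interval of 0.981 to 1.16 (edgeR adjusted p = 0.701).

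*Socs3* (ENSMUSG00000053113, chr11:117856905-117860873, minus strand), best known as a brake on IL-6 receptor signalling through STAT3, was the most variable of the 10 genes. It had 35.3, 33.7, 22.5 and 24.3 CPM in controls and 34.7, 24.7, 29.8 and 29.8 CPM in *Tdrd3fl/fl/Foxp3YFP-Cre* libraries, a coefficient of variation of 22.4% and 13.7%. The values of *Tdrd3fl/fl/Foxp3YFP-Cre* libraries lay inside the range of the controls, of which replicates 1 and 2 were high and those labelled 3 and 4 low. The ratio of 1.03 had a 95% interval of 0.855 to 1.23 (edgeR adjusted p = 0.957), and the sign of the log2 fold change, 0.04, turned in 5 of the 16 alternative settings.

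Per kilobase of exon, the scale on which genes can be compared with each other, *Il2ra* had the highest level of the 10 genes, 397 ± 13.7 CPM per kb in controls (SD, n = 4) and 363 ± 11.8 in *Tdrd3fl/fl/Foxp3YFP-Cre* libraries. *Il2rb* followed with 192 CPM per kb in controls, then *Il2rg* with 113, *Cish* with 99.4, *Stat5b* with 61.8, *Stat5a* with 52.4, *Jak3* with 38.4, *Jak1* with 37.6, *Socs1* with 23.3 and *Socs3* with 8.13. Over the 8 libraries the ranges of *Il2rg* and *Cish*, of *Stat5b* and *Stat5a*, and of *Jak3* and *Jak1* overlapped, and those of the other neighbours did not. With the length of the longest transcript in place of all exons, *Stat5a* passed *Stat5b* (91.1 against 77.2 CPM per kb in controls) and *Jak1* passed *Jak3* (66.0 against 47.1). The α chain transcript stood at 1.89 to 2.14 times that of the β chain in each library on the exon scale. By the longest transcript the ratio was larger, with control means of 514 CPM per kb for *Il2ra* and 200 for *Il2rb*.

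**Figure D3:**
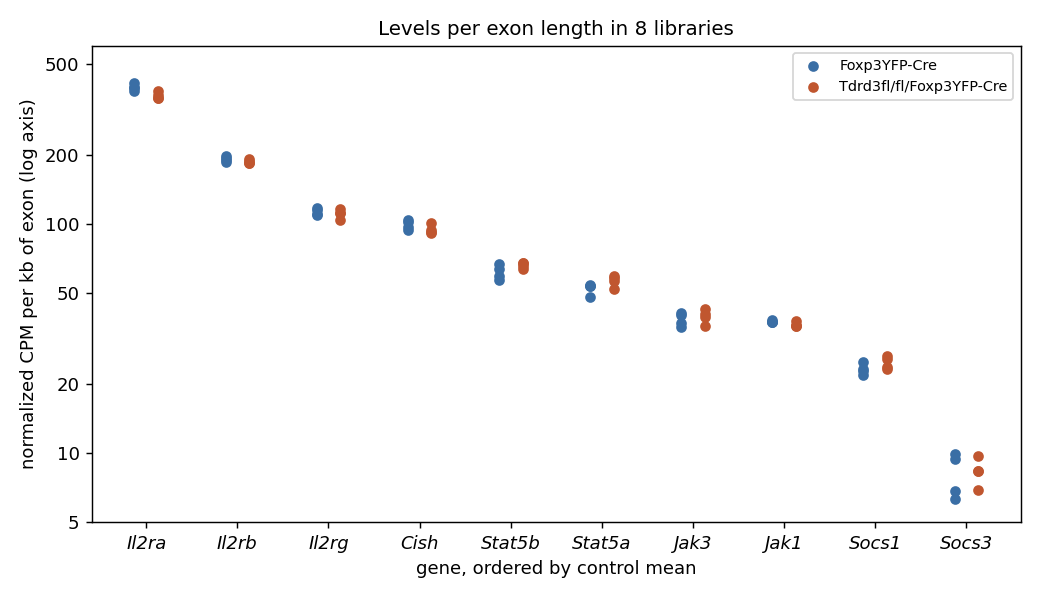
Normalized CPM per kb of exon (log axis) for the 10 genes in order of their control mean, with 4 *Foxp3YFP-Cre* and 4 *Tdrd3fl/fl/Foxp3YFP-Cre* libraries as points. Levels fall from 397 CPM per kb for *Il2ra* to 8.13 for *Socs3* in controls, and the order of the genes spans far more than the genotypes do.

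The transcript of the ligand itself was low in these cultures. *Il2* had 1.10, 0.437, 0.701 and 1.77 CPM in controls and 2.83, 1.19, 1.35 and 1.56 CPM in *Tdrd3fl/fl/Foxp3YFP-Cre* libraries, where 3 counts correspond to 0.188 to 0.225 CPM. The highest value was in *Tdrd3fl/fl/Foxp3YFP-Cre* replicate 1, the groups overlapped, and the ratio of 1.71 had a 95% interval of 0.956 to 3.07 (edgeR adjusted p = 0.591). Of 12 other ligands and receptors of the common γ chain family (*Il2* included), 8 were analysed and tested. In edgeR's test 0 passed after adjustment. At an unadjusted p below 0.05, 1 of them, *Il9*, was higher (background 4.38% of tested genes). *Il9*, a cytokine whose receptor uses the γ chain, had 25.1, 20.8, 21.6 and 21.4 CPM in controls and 51.9, 22.5, 23.4 and 53.2 CPM in *Tdrd3fl/fl/Foxp3YFP-Cre* libraries. Replicates 1 and 4 alone were high, and without them the log2 fold change of *Il9* was 0.04 in place of 0.76 (edgeR adjusted p = 0.152). *Il9* passed the threshold with the replicate number as a block (edgeR adjusted p = 0.0287) and without *Tdrd3fl/fl/Foxp3YFP-Cre* replicate 2 (0.00756). *Il7r*, the IL-7 receptor α chain, behaved likewise, at 17.0, 15.7, 19.0 and 17.4 CPM against 22.0, 16.5, 17.6 and 24.2 CPM (edgeR adjusted p = 0.614). *Lyz2*, a lysozyme of myeloid cells that was too low to be tested, had 9 and 18 counts in these same replicates 1 and 4, 0 counts in all 4 controls and in replicate 2, and an estimated 0.000918 counts in replicate 3. *Cd68*, the other myeloid marker analysed and also too low to be tested, did not share this pattern. It had 7, 16, 7 and 16 counts in controls and 6, 7, 6 and 13 in *Tdrd3fl/fl/Foxp3YFP-Cre* replicates 1 to 4. The part of either marker in the values of *Il9*, *Il7r*, *Lta*, *Pim1*, *Foxp3* and *Il17f* was not tested.

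Among 7 other JAK and STAT genes none passed after adjustment, and the median log2 fold change was 0.00. At an unadjusted p below 0.05, 1 of them, *Tyk2*, was lower (background 4.91% of tested genes). *Tyk2*, a kinase of the interferon and IL-12 receptors, had 66.6 to 72.8 CPM in controls and 62.9 to 66.8 CPM in *Tdrd3fl/fl/Foxp3YFP-Cre* libraries (log2 fold change −0.11, edgeR adjusted p = 0.527). *Jak2* had 179 to 197 CPM against 190 to 221 CPM (adjusted p = 0.551), and *Stat3*, which carries IL-6 signals, had 653 to 795 CPM against 689 to 819 CPM (adjusted p = 0.756, same edgeR test). Among 17 other SOCS, PIAS and phosphatase genes none passed after adjustment, and the median log2 fold change was 0.00. At an unadjusted p below 0.05, 2 were lower and 1 higher (background 4.91% and 4.38% of tested genes). *Ptprc*, the phosphatase CD45, was lower with no overlap, by a narrow margin, at 1150 to 1200 CPM in controls and 1080 to 1150 CPM in *Tdrd3fl/fl/Foxp3YFP-Cre* libraries (log2 fold change −0.09, edgeR adjusted p = 0.416). *Socs2* had 302, 280, 307 and 305 CPM against 260, 301, 277 and 257 CPM (adjusted p = 0.421), and *Socs6* had 28.4 to 33.5 CPM against 32.1 to 35.2 CPM (adjusted p = 0.471, same edgeR test). Of 18 genes of the adaptor and MAPK arm of the receptor, 17 were tested, and 0 had an unadjusted or adjusted p below 0.05 in edgeR's test. The smallest p-values there were those of *Gab2* (0.106), *Sos2* (0.122) and *Map2k1* (0.217).

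Of 25 genes listed as known targets of STAT5, 21 were tested and 0 passed after adjustment in edgeR's test. At an unadjusted p below 0.05, 4 were lower and 4 higher (background 4.91% and 4.38% of tested genes), with a median log2 fold change of 0.05 over the 21. *Lta*, the cytokine lymphotoxin α, had 316, 313, 323 and 362 CPM in controls and 460, 351, 348 and 420 CPM in *Tdrd3fl/fl/Foxp3YFP-Cre* libraries (log2 fold change 0.27, SE 0.0715, edgeR adjusted p = 0.138). Replicates 1 and 4 were again the highest, and without them the log2 fold change of *Lta* was 0.09. *Pim1*, a survival kinase, had 465, 473, 410 and 395 CPM against 355, 408, 391 and 355 CPM (log2 fold change −0.21, SE 0.0576, edgeR adjusted p = 0.152). *Foxp3* had 117, 122, 107 and 93.8 CPM against 77.2, 105, 93.2 and 78.1 CPM (log2 fold change −0.31, SE 0.088, edgeR adjusted p = 0.152). In *Pim1* and *Foxp3* replicates 1 and 4 were the lowest, the genotypes overlapped, and without these replicates the log2 fold changes were −0.12 and −0.15. *Foxp3* passed the threshold in 4 alternative settings: with the replicate number as a block (edgeR adjusted p = 0.0161), in limma voom (0.0416), without *Foxp3YFP-Cre* replicate 4 (0.0337) and without *Tdrd3fl/fl/Foxp3YFP-Cre* replicate 2 (0.0104). *Pim1* passed in 3, namely limma voom (adjusted p = 0.0368) and edgeR without either of these libraries (0.0337 and 0.0361). *Lta* passed in 3, namely the replicate block (edgeR adjusted p = 0.0354) and without either of these libraries (0.0455 and 0.0227). *Ccnd2*, a cyclin of early cell cycle entry and named here after its values were seen, was the only one of the 21 whose genotypes did not overlap, at 917 to 967 CPM in controls and 860 to 885 CPM in *Tdrd3fl/fl/Foxp3YFP-Cre* libraries (log2 fold change −0.10, edgeR adjusted p = 0.267).

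Of 8 genes that STAT5 is known to repress, 7 were tested and 0 passed after adjustment in edgeR's test. At an unadjusted p below 0.05, 1 was lower and 2 were higher (background 4.91% and 4.38% of tested genes). The median log2 fold change was 0.00. The genotypes did not overlap in 1 of the 7, a higher gene whose values are not reported here (background 2.25% of tested genes). *Il17f*, a Th17 cytokine, had 2.19, 1.82, 3.29 and 3.26 CPM against 9.44, 1.25, 3.83 and 12.2 CPM (edgeR adjusted p = 0.269), and its log2 fold change went from 1.33 to −0.08 without *Tdrd3fl/fl/Foxp3YFP-Cre* replicates 1 and 4. Without *Tdrd3fl/fl/Foxp3YFP-Cre* replicate 2 *Il17f* passed the threshold (log2 fold change 1.69, edgeR adjusted p = 0.00519). *Il6ra*, the IL-6 receptor α chain, had 221, 194, 208 and 199 CPM against 171, 197, 195 and 168 CPM (edgeR adjusted p = 0.255).

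**Figure D4:**
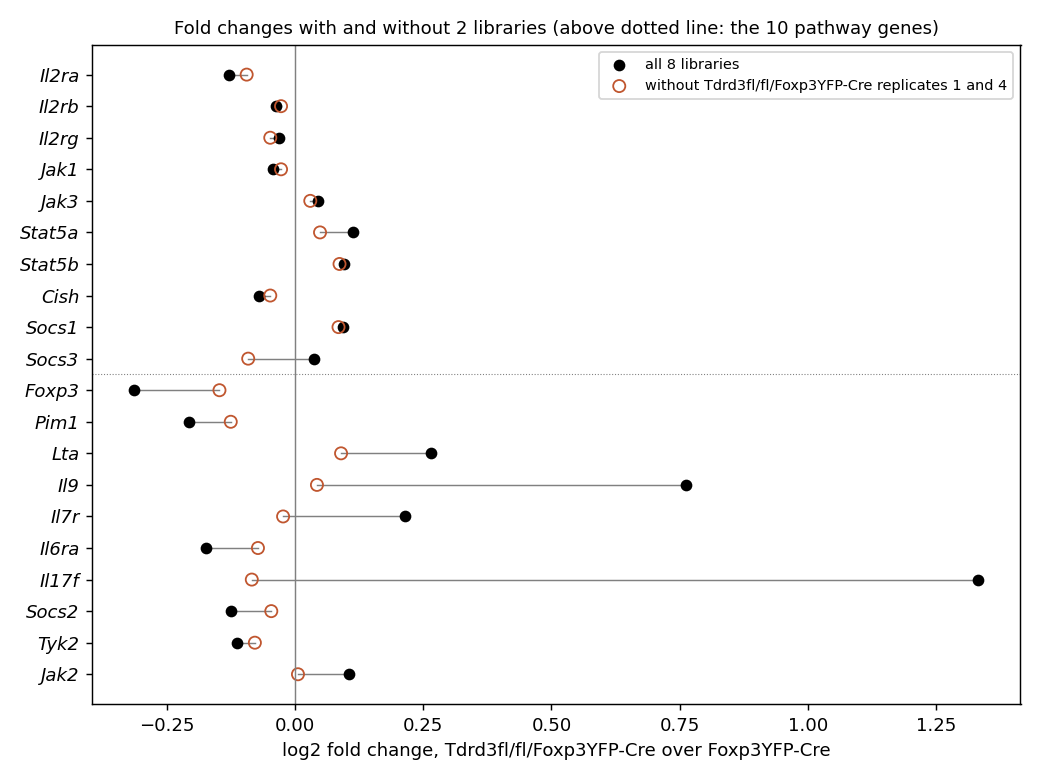
Log2 fold change of the 10 pathway genes (above the dotted line) and of 10 related genes over all 8 libraries (filled points) and without *Tdrd3fl/fl/Foxp3YFP-Cre* replicates 1 and 4 (open circles). *Il2ra* went from −0.13 to −0.09 and *Il9* from 0.76 to 0.04, and the sign turned for *Socs3*, *Il7r* and *Il17f*. The replicates left out were picked after their values in genes such as *Il9* were seen.

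The libraries expressed T cell genes throughout, and markers of other cell types were low. B cell markers summed to 1.92 to 3.71 CPM in controls and 1.09 to 2.93 CPM in *Tdrd3fl/fl/Foxp3YFP-Cre* libraries over the 3 of 6 genes analysed, NK cell markers to 3.01 to 4.12 and 3.19 to 4.31 CPM over 2 of 5, myeloid markers to 0.479 to 1.16 and 0.439 to 2.11 CPM over 2 of 8 (*Cd68* and *Lyz2*, the latter found in *Tdrd3fl/fl/Foxp3YFP-Cre* replicates 1 and 4 as given above), and erythroid markers to 0.637 to 0.893 and 0.244 to 0.815 CPM over 1 of 5. The defining markers *Ms4a1*, *Ncr1*, *Itgam* and *Csf1r* were not among the genes analysed here.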

How the data were processed

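Libraries were made from total RNA of 8 iTreg cultures after removal of ribosomal RNA. The authors aligned reads to GRCm39 (mm39) with STAR 2.7.8a and deposited one table of estimated counts per gene, made by the expectation-maximization counting of Partek Flow, filtered and not normalized. Sequencing depth, strandedness and the annotation release are not given in the sources used here. Of the values, 36.6% were not whole (tolerance 0.001), and the lowest gene reached 10 counts in its highest library. Counts were rounded, filtered with filterByExpr (594 genes left out, minimum count 10), normalized by TMM (factors 0.993 to 1.00) and tested for genotype with edgeR 4.0.16 (R 4.3.3). CPM scales each count to the total over the tested genes. Genotype sets of 4 libraries were compared, and single genes also by the exact permutation test on log2(CPM + 0.5), two-sided over 70 arrangements. Fold change errors are standard errors, and intervals are 95%.

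The 10 genes and all lists were chosen with earlier results of these data known. Named genes were the 10 members, *Tdrd3*, *Foxp3*, *Il2*, every gene of another list with an adjusted p below 0.05, the 3 of smallest p in each list, and the 3 genes most like *Il2ra* and *Cish*; some values that this rule covers are not reported here. Positions are those of the table on GRCm39; exon lengths and overlaps came from GENCODE release 39 of the mouse, which held 11910 of the 11911 identifiers. No 2 libraries of a genotype were duplicates (chi-square of their counts 2.59 to 6.32 per degree of freedom). The closest pairs were *Tdrd3fl/fl/Foxp3YFP-Cre* replicates 1 and 4 (2.59) and *Foxp3YFP-Cre* replicates 1 and 2 (2.7). All other pairs lay at 3.79 or above. Whether the libraries of a close pair share a mouse was not tested. Deviations of libraries with the same number in both genotypes correlated by −0.0458 to 0.0691. Alternatives were no filter, at least 10 counts in each library, scaling by the size factors of DESeq2 or by library size alone, a replicate block, DESeq2 1.42.0, limma 3.58.1 voom with quality weights, leaving out each library, and leaving out *Tdrd3fl/fl/Foxp3YFP-Cre* replicates 1 and 4.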

Additional observations from a re-analysis of the deposited data

Results flagged for a closer look

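In 5 of 96 groups of 4 libraries checked, a library stood far from the other 3 of its genotype, where chance gives about 1 in 20 groups. *Stat5a* had 396 CPM in the library labelled *Foxp3YFP-Cre* replicate 3, and the next lowest control had 441 CPM. *Cd8a*, a chain of the CD8 coreceptor, had 11.3 CPM in the same library and at most 1.37 CPM in the other controls. *Mbnl3*, the splicing factor whose pattern was near that of *Il2ra*, had 120 CPM in that library too, and the next highest control had 104 CPM. *Thy1* had 882 CPM in *Foxp3YFP-Cre* replicate 4, and the next lowest control had 1020 CPM. *Cd3e*, a chain of the T cell receptor complex, had 160 CPM in *Tdrd3fl/fl/Foxp3YFP-Cre* replicate 3, and the next highest library of that genotype had 142 CPM.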

How the results depend on the processing

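Of 160 log2 fold changes of the 10 genes over 16 alternative settings, 153 kept their direction and their side of the threshold, 6 turned direction and 1 passed the threshold, *Il2ra* in DESeq2 (adjusted p = 0.0484), which made 1 gene of the 10 called in place of 0. *Socs3* turned to −0.017 in limma voom and to −0.091 without *Tdrd3fl/fl/Foxp3YFP-Cre* replicates 1 and 4, and ran from −0.067 to 0.148 when 1 library was left out. *Il2rg* ran from −0.054 to 0.00, reaching 0.00 without *Tdrd3fl/fl/Foxp3YFP-Cre* replicate 3. Without *Tdrd3fl/fl/Foxp3YFP-Cre* replicates 1 and 4, *Il7r* turned to −0.023, *Stat3* to −0.006, *Il17f* to −0.084, *Cd79b* to 0.071 and *Klrd1* to 0.096; with 1 library left out *Cd79b* ran from −0.36 to 0.005 and *Klrd1* from −0.65 to 0.03. The causes were not tested.

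Over all genes, 30 had an adjusted p below 0.05 in edgeR's test, 79 in DESeq2, 95 in limma voom and 3 without *Tdrd3fl/fl/Foxp3YFP-Cre* replicates 1 and 4. The last of these fits had fewer libraries and so less power. Leaving out 1 library gave 6 to 162, the lowest without *Tdrd3fl/fl/Foxp3YFP-Cre* replicate 1 and the highest without replicate 2; the others were 8, 12, 10 and 90 for *Foxp3YFP-Cre* replicates 1 to 4, and 19 and 7 for *Tdrd3fl/fl/Foxp3YFP-Cre* replicates 3 and 4. At an unadjusted p below 0.05 there were 1052 genes, 450 without *Tdrd3fl/fl/Foxp3YFP-Cre* replicates 1 and 4, and 697 to 1230 with 1 library left out, the lowest without *Tdrd3fl/fl/Foxp3YFP-Cre* replicate 1. Of the 10 genes, 2 had an unadjusted p below 0.05, 0 without *Tdrd3fl/fl/Foxp3YFP-Cre* replicates 1 and 4, and 1 to 3 with 1 library left out, the 1 without *Tdrd3fl/fl/Foxp3YFP-Cre* replicate 1 or 4. The genotypes were separate in 1 of the 10 genes and in 1 to 3 with 1 library left out, 3 without *Tdrd3fl/fl/Foxp3YFP-Cre* replicate 2 and 2 without *Foxp3YFP-Cre* replicate 2 or *Tdrd3fl/fl/Foxp3YFP-Cre* replicate 3. With all libraries, 2.63% of tested genes were separate in the lower and 2.25% in the higher direction. Leaving out a library makes separation easier for any gene, and the share over all genes was not taken in those settings.

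With the replicate number as a block, 87 genes had an adjusted p below 0.05, and 0 of the 10 genes did. Deviations of the libraries correlated by −0.0458 to 0.0691 within a number. These correlations cannot decide whether equal numbers mark a pair, because libraries of unequal number were not compared. With 4 libraries a genotype, the 95% intervals of the 10 genes, each taken singly, stayed within a 1.16-fold difference except for *Socs3*. They describe whole cultures, which may contain cells that kept *Tdrd3*. Counting error adds least to *Il2ra*, with at least 27706 counts a library, and most to *Socs3*, with as few as 321.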
